A study of Mus musculus with 16 samples.

Results

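The YAP target genes described here are 6 genes, Ctgf, Cyr61, Amotl2, Ajuba, Lats2 and Axl, chosen by name as a fixed list and followed through the epithelial cells, fibroblasts and endothelial cells of the mouse transverse colon. All 6 were found among the 16039 genes of the deposited single-cell matrix, which holds 22717 cells of 16 mice. The 3 classes held 10373 epithelial cells in 17 of the submitters' cell types, 5828 fibroblasts in 9 types and 1008 endothelial cells in 2 types (vascular, VascEndo, and lymphatic, LymphEndo).

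The mice were female C57Bl/6J animals of 7 weeks, and each mouse was its own replicate. Colitis was induced in 12 of them with 4% dextran sulfate sodium (DSS) in the drinking water, a detergent-like polymer that strips the colon epithelium. Treatment followed on day 4 at 10 mg/kg, with either a control antibody against GFP or SZN-1326-p, an engineered Wnt activator that acts by way of selected Frizzled receptors, and tissue was taken 24 h or 48 h later. The groups were therefore uninjured (2 mice per time), DSS with anti-GFP (3 mice per time) and DSS with SZN-1326-p (3 mice per time); no undamaged mouse received SZN-1326-p. Epithelial and lamina propria cells were dissociated separately, sorted and profiled by droplet sequencing of RNA 3' ends with molecular identifiers (UMIs).

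YAP and its relative TAZ (gene Wwtr1) are transcriptional co-activators that bind DNA through the TEAD factors. The Hippo kinase cascade, which ends in LATS1 and LATS2, phosphorylates YAP and TAZ and keeps them out of the nucleus, and stretch, spreading, low cell density or tissue damage release them. In the intestine YAP is known for its part in epithelial regeneration after injury, and in fibroblasts for matrix production and contractility.

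The members fall into 3 roles. Ctgf (CCN2) and Cyr61 (CCN1) encode secreted matricellular proteins of the CCN family and are the most used YAP readouts. Amotl2, Lats2 and Ajuba are targets that act back on the pathway: AMOTL2 is an angiomotin that holds YAP in the cytoplasm, LATS2 is the kinase that phosphorylates it, and the LIM protein AJUBA inhibits the LATS kinases. Axl encodes a receptor tyrosine kinase whose ligand is GAS6. In the mm10 annotation (GENCODE), Ctgf lies at chr10:24595442-24598683 on the plus strand and Cyr61 at chr3:145646976-145649981 on the minus strand. Amotl2 lies at chr9:102716672-102733418 (plus), Ajuba at chr14:54567472-54577558 (minus), Lats2 at chr14:57689662-57758388 (minus) and Axl at chr7:25757273-25788705 (minus).

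TEAD factors bind the letters CATTCC, whose reverse complement is GGAATG, and the sequences around each match in the promoters are shown. Ctgf had no promoter window in the source used, so nothing is said of its promoter. Promoter windows of 250 bases before to 50 bases after a gene's start (RefSeq, GRCm38.p6) were searched on both strands. For Amotl2 and Lats2 these RefSeq starts lie inside the GENCODE spans given above. Of the 5 members with a window, Cyr61, Amotl2, Ajuba, Lats2 and Axl, all 5 held at least 1 match, and 5 of their 6 windows did, the other window being a second start of Lats2. For comparison, 14.7% of all 32851 windows and 16.6% of 27025 genes held the motif, and among 21 wider YAP targets 3 of the 15 with a window did. The matches follow, each as 30 bases in the direction of the gene with the motif in capitals. The Cyr61 match lies at chr3:145650071-145650100 and begins 103 bases before the start, that of Amotl2 at chr9:102717727-102717756, 65 bases before. Ajuba has a pair, at chr14:54577830-54577859 and chr14:54577808-54577837, 186 and 164 bases before its start. The match of Axl lies at chr7:25788949-25788978, 233 bases before the start, and that of Lats2 at chr14:57746102-57746131, 4 bases after it, both on the opposite strand of the gene.
Cyr61: cgcgccaaccaaCATTCCtgagatgtttga
Amotl2: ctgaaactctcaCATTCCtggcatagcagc
Ajuba, first: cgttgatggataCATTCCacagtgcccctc
Ajuba, second: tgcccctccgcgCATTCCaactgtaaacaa
Axl: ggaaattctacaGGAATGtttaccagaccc
Lats2: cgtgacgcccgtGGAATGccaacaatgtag

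The Cyr61 match is given in its setting, since Cyr61 was the member measured in most cells of all 3 classes together. The 250 bases before its start span chr3:145649986-145650235 on the minus strand. A match of letters is a description and was not tested as a binding site.
Cyr61 promoter: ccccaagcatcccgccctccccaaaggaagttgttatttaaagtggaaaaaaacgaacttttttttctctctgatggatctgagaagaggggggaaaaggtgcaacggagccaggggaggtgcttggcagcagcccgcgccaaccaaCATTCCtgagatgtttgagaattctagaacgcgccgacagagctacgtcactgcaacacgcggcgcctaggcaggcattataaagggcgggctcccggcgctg

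Levels are given as normalized UMIs per cell, that is, UMIs divided by the size factor of the cell as deposited, averaged over the cells of a class in each mouse. The mice held 936 to 2033 cells and 9616512 to 21335421 UMIs each, with at least 26 cells of every class in every mouse. The labelled classes carried their markers: the 6 fibroblast markers summed to 141 to 172 normalized UMIs in fibroblasts of the uninjured mice, and the 6 endothelial markers to 52.3 to 65 in endothelial cells. Mitochondrial UMIs made up a median of 19.16 to 26.12% in the uninjured mice against 5.06 to 11.63% in the anti-GFP mice, a difference that runs alongside every comparison of those groups and whose part in them was not tested. The 48 h values were 7.06, 6.54 and 24.06% with SZN-1326-p against 5.06, 5.77 and 6.39% with anti-GFP, again without overlap. Of all cells, 129 carried a barcode sequence found in more than 1 library.

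Among the 3 classes, the members had their highest means in fibroblasts or endothelial cells, and each had its own distribution. Ctgf averaged 1.64 ± 1.6 normalized UMIs per cell in fibroblasts (SD, n = 16 mice), 0.144 ± 0.0965 in endothelial cells and 0.0112 ± 0.0116 in epithelial cells. Cyr61 was the member present in all 3 classes, at 2.54 ± 0.777 in fibroblasts, 1.99 ± 0.662 in endothelial cells and 1.26 ± 0.448 in epithelial cells. Axl was at 1.73 ± 0.242 in fibroblasts against 0.0165 ± 0.0217 in endothelial and 0.00743 ± 0.0051 in epithelial cells. Outside the 3 classes, the submitters' Macrophage type held 3.1 ± 0.675 of Axl (16 mice).

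The 2 members that restrain YAP had another order. Lats2 was highest in endothelial cells, at 0.917 ± 0.261, then fibroblasts, at 0.464 ± 0.0683, and epithelial cells, at 0.0631 ± 0.0342. Amotl2 followed the same order, at 0.497 ± 0.178, 0.334 ± 0.0688 and 0.0526 ± 0.0212. Ajuba was scarce in all 3 classes, and its ranges overlapped between them. It was at 0.0491 ± 0.0308 in fibroblasts, 0.0317 ± 0.0326 in endothelial cells and 0.0228 ± 0.0122 in epithelial cells.

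**Figure D1:**
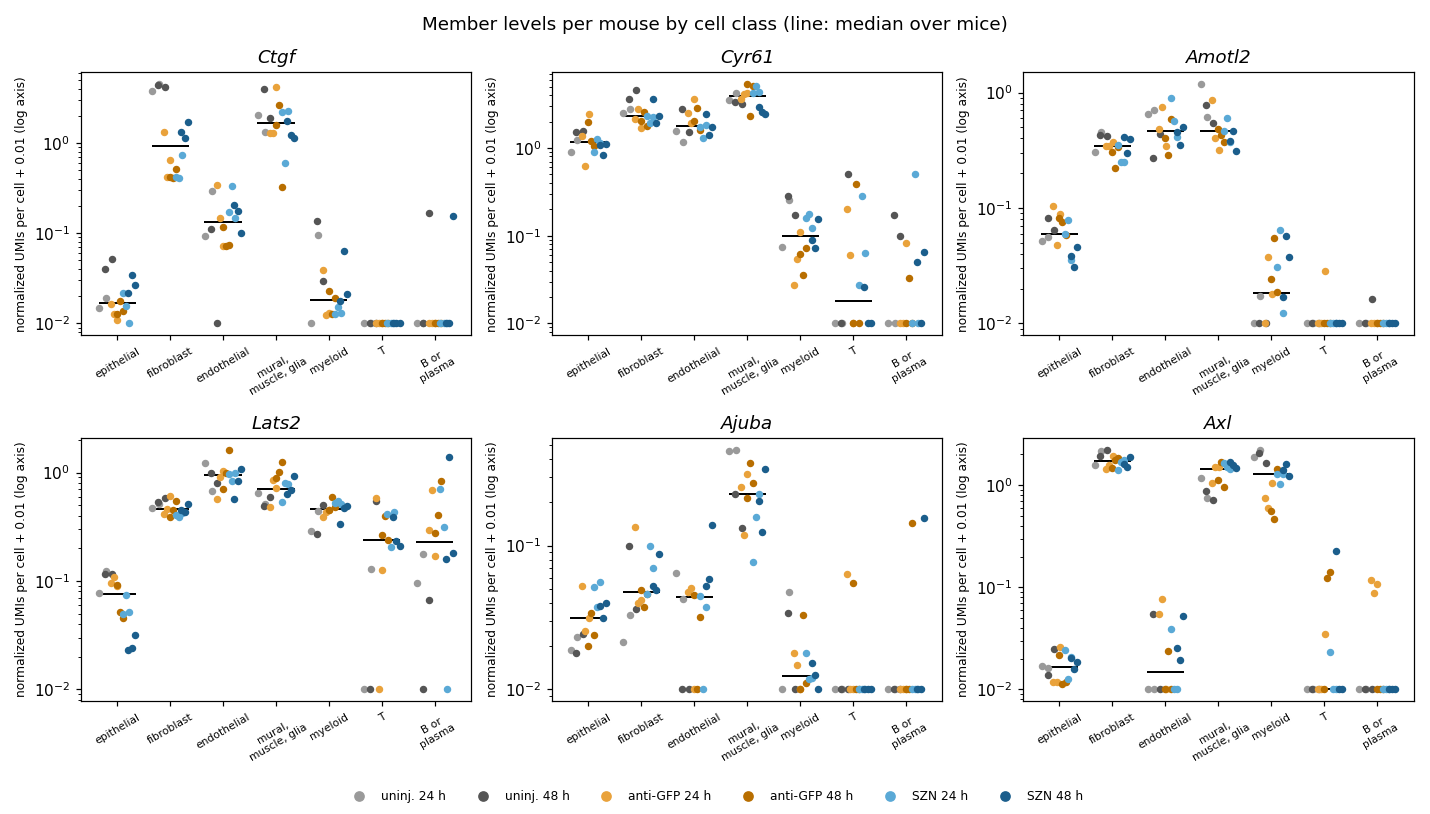
Each of the 6 panels shows 1 gene, with normalized UMIs per cell plus 0.01 on a log axis for every mouse (points) in 7 cell classes and the median as a line. Axl in fibroblasts lay near 1.73 and far above its level in epithelial and endothelial cells, while Cyr61 was found in all 3 classes.

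Taking the difference between classes within each mouse (limma on log2 of normalized UMIs + 0.01, Benjamini-Hochberg adjustment over all genes, threshold 0.05), all 6 members were called higher in fibroblasts than in epithelial cells. Ctgf, Ajuba and Axl passed the level filter (a mean of at least 0.05 in at least 2 mice) in fibroblasts but not in epithelial cells. They entered this comparison through the class where they were higher, so nothing is read from their calls. The folds were 6.99 for Lats2, 5.77 for Amotl2 and 2.1 for Cyr61 (limma adjusted p = 9.62e-06). Ajuba, also low in epithelial cells, had a log2 difference of 0.795 (limma adjusted p = 0.000154), and as low as 0.41 among other settings. No fold is given for Axl and Ctgf, whose epithelial levels are near the added 0.01, so that the constant sets the size: the log2 difference was 6.7 for Axl and 5.99 for Ctgf, and 4.96 and 4.42 with 0.05 added. These classes are distinct cell lineages, and 87.4% of the 12564 genes tested were called in this comparison (41.1% higher in fibroblasts), so the calls alone set no member apart. Epithelial and lamina propria cells were also dissociated separately, and the part of preparation in any difference from epithelial cells was not tested. Between endothelial and epithelial cells, 4 of the 5 members tested were higher in endothelial cells, against 70.8% of genes called and 26.8% called higher: Lats2 13.2-fold, Amotl2 8.05-fold and Cyr61 1.56-fold. Ctgf, near the added constant in epithelial cells, had a log2 difference of 2.54, or 1.45 with 0.05 added. It passed the level filter in endothelial but not in epithelial cells, so nothing is read from its call. Ajuba differed by 0.02 on the log2 scale (limma adjusted p = 0.944).

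Between endothelial cells and fibroblasts the members differed in both directions, with all 6 called against 56.9% of all genes. Lats2 was 1.88-fold and Amotl2 1.4-fold higher in endothelial cells (limma adjusted p = 4.27e-06 and 0.00177). Ctgf was 10.9-fold, Ajuba 1.71-fold and Cyr61 1.35-fold lower (limma adjusted p = 0.027 for Ajuba and 0.0132 for Cyr61). Axl, with 25 UMIs in 12 of 1008 endothelial cells, had a log2 difference of -6.51, or -4.82 with 0.05 added. It entered this comparison through its fibroblast level alone, so nothing is read from its call. The Ajuba difference lost its call with a pseudocount of 0.05 (limma adjusted p = 0.0525) and without uninjured 24 h mouse 2, uninjured 48 h mouse 1 or anti-GFP 48 h mouse 2. With replicate number as a block, the Ajuba and Cyr61 calls were both lost.

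Shares of cells with a UMI were compared after thinning every cell to 2000 UMIs, since median depth was 10800 UMIs in epithelial cells, 8660 in fibroblasts and 5010 in endothelial cells. Ctgf was then seen in 16.2% of fibroblasts (27.5% unthinned), 3.07% of endothelial cells (6.45% unthinned) and 0.18% of epithelial cells (0.694% unthinned). Myeloid cells, which should lack Ctgf, gave 0.224% thinned and 0.657% unthinned at a median depth of 7460 UMIs. B and plasma cells gave 0.227% and 0.375% at a median of 4120 UMIs (2 UMIs in all), and T cells held 0 UMIs in 649 cells at a median of 2600. The thinned epithelial share thus did not exceed the background set by myeloid or by B and plasma cells. In all, 191 Ctgf UMIs lay in 72 of 10373 epithelial cells against 8951 UMIs in 1603 fibroblasts.

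Cyr61 was well above such a background in every class, with thinned shares of 13.2% of epithelial cells, 30.1% of fibroblasts and 26.1% of endothelial cells against 1.23% of myeloid cells (31.6%, 52.2%, 40.2% and 3.56% unthinned). Axl was seen in 31.8% of fibroblasts (73.8% unthinned), but in 0.134% of epithelial and 0.559% of endothelial cells (0.617% and 1.19% unthinned). B and plasma cells, which should lack Axl, gave 0.14% thinned and 0.75% unthinned at a median of 4120 UMIs (4 UMIs in all), so the epithelial share did not exceed background. T cells gave 0.892% and 1.08% at a median of 2600 UMIs (7 UMIs in all), and the thinned endothelial share lay between those of B and T cells. Lats2 was seen in 0.937% of epithelial cells (5.84% unthinned), 10.3% of fibroblasts (37.9%) and 19.5% of endothelial cells (41.7%), with 7.97% of myeloid cells (25.2%). Outside the 3 classes, the thinned shares in mural, muscle and glia cells were 20.4% for Ctgf, 36.2% for Cyr61 and 10.4% for Amotl2. For Lats2, Axl and Ajuba they were 15.3%, 27.2% and 5.17%, with Ajuba at 1.05% in fibroblasts.

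Within fibroblasts the levels are described by the submitters' cell types without a test, because those types were drawn from the same cells' genes, and within 1 group of mice at a time, because the groups differ. In the uninjured mice Ctgf was highest in BaseCryptFB1, with 6.03, 7.61, 6.97 and 7.33 in the 4 mice. CryptFB1 held 1.62 ± 0.533 of Ctgf there, BaseCryptFB2 1.4 ± 0.3 and MyoFB 0.945 ± 0.541 (4 mice each), which lie within their spread of each other, and CryptFB2 0.231 ± 0.148 (3 mice). In the anti-GFP mice, where BaseCryptFB1 was missing, BaseCryptFB2 held 1.29 ± 0.788 of Ctgf, MyoFB 1.08 ± 1.78 and CryptFB1 0.215 ± 0.126 (6 mice each).

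Cyr61 and Axl had other orders. In the uninjured mice CryptFB2 held 6.25 ± 2.56 of Cyr61 (3 mice) and BaseCryptFB1 3.6 ± 1.4 (4 mice), and in the anti-GFP mice InjuryCryptFB1 held 4.37 ± 1.43 and CryptFB2 3.9 ± 1.05 (5 mice each), with BaseCryptFB2 at 3.93 ± 1.02 (6 mice). Axl was highest in BaseCryptFB2 in the uninjured mice, at 4.6 ± 1.2 against 1.76 ± 0.189 in BaseCryptFB1 and 1.32 ± 0.156 in CryptFB1 (4 mice each). With anti-GFP the same types overlapped, at 1.97 ± 0.252 of Axl in BaseCryptFB2 and 1.87 ± 0.192 in CryptFB1. Amotl2 was at 0.493 ± 0.107 in BaseCryptFB2 and 0.496 ± 0.0859 in CryptFB1 of the uninjured mice, and at 0.826 ± 0.227 and 0.314 ± 0.088 with anti-GFP.

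In the epithelium the negative regulator Lats2 was found mainly in enterocyte types. In the uninjured mice it reached 0.397 ± 0.278 in AltEnterocyte2 (3 mice), 0.215 ± 0.0745 in Enterocyte and 0.156 ± 0.017 in ImmEntero2, against 0.0041 ± 0.00476 in StemCell and 0.00426 ± 0.00702 in TA2 (4 mice each). With anti-GFP, Lats2 was at 0.171 ± 0.0544 in AltEnterocyte2 (5 mice) and 0.109 ± 0.028 in AltEnterocyte (6 mice), against 0.00678 ± 0.0136 in StemCell (4 mice) and 0.00501 ± 0.00559 in BasalGoblet (6 mice). Cyr61 had another order, with 3.65 ± 0.435 in Goblet1 (3 mice) and 0.202 ± 0.0786 in Enterocyte (4 mice) of the uninjured mice. With anti-GFP, Cyr61 was at 3.57 ± 1.75 in TA2 (4 mice), 2.59 ± 1.07 in BasalGoblet and 0.267 ± 0.257 in AltEnterocyte (6 mice each). Within the endothelium of the anti-GFP mice, VascEndo held 1.08 ± 0.36 of Lats2 and 0.558 ± 0.2 of Amotl2 (6 mice), and LymphEndo 0.523 ± 0.235 and 0.225 ± 0.215 (4 mice).

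Both CCN members fell in fibroblasts with DSS, Ctgf by far the more. Ctgf in fibroblasts was 3.76 and 4.52 normalized UMIs per cell in the uninjured mice at 24 h and 4.4 and 4.21 at 48 h. In the anti-GFP mice it was 1.31, 0.409 and 0.644 at 24 h and 0.415, 0.402 and 0.509 at 48 h. Every uninjured mouse lay above every anti-GFP mouse. Across both times the mean was 4.22 ± 0.332 (n = 4) against 0.615 ± 0.353 (n = 6), a 7.45-fold decrease (log2 change -2.90 ± 0.24 SE, limma adjusted p = 2.06e-07).

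Cyr61 in fibroblasts was 2.5 and 2.76 in the uninjured mice at 24 h and 3.61 and 4.55 at 48 h. The anti-GFP mice held 2.11, 2.77 and 1.7 at 24 h and 2.04, 2.58 and 1.77 at 48 h. The groups overlapped, since anti-GFP 24 h mouse 2 and anti-GFP 48 h mouse 2 reached the lower uninjured values. The means were 3.35 ± 0.926 and 2.16 ± 0.431, and Cyr61 fell 1.53-fold (log2 change -0.62 ± 0.18 SE, limma adjusted p = 0.0159). This call was lost without uninjured 48 h mouse 2 (limma adjusted p = 0.0874) and without cells holding 2 markers of another lineage, a rule that removes 58.9% of fibroblasts (limma adjusted p = 0.0548).

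The other members did not pass the test in this comparison. In total 2 of 6 members were called, both lower, where 22.2% of the 11110 genes tested were called and 9.79% were called lower. Amotl2 had a log2 change of -0.34 ± 0.16 (limma adjusted p = 0.14), from 0.298, 0.448, 0.419 and 0.414 in the uninjured mice to 0.335, 0.333, 0.365, 0.296, 0.214 and 0.326 with anti-GFP, which overlap. It passed without uninjured 24 h mouse 1 (-0.48, limma adjusted p = 0.0482) and without BaseCryptFB1 cells (-0.50, limma adjusted p = 0.0259). Axl had -0.23 ± 0.14 (limma adjusted p = 0.258), Lats2 -0.14 ± 0.13 (limma adjusted p = 0.491) and Ajuba 0.38 ± 0.36 (limma adjusted p = 0.497).

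**Figure D2:**
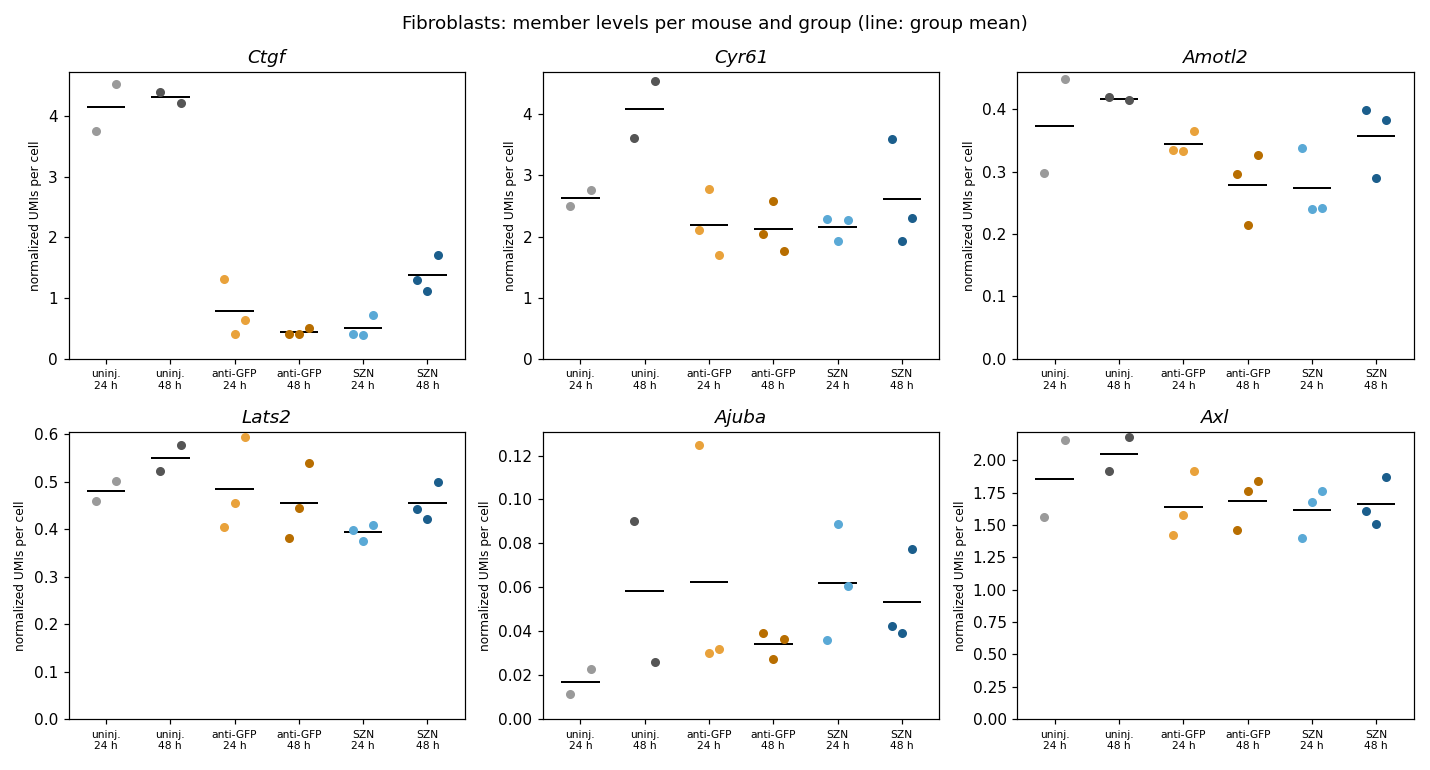
Normalized UMIs per cell in fibroblasts are plotted for each mouse (points) in the 6 groups, 1 panel per gene, with the group mean as a line. Ctgf sat between 3.76 and 4.52 in the uninjured mice and at or below 1.31 in the anti-GFP mice, while Lats2 and Axl overlapped across groups.

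The loss of Ctgf went along with a change in which fibroblasts were present. BaseCryptFB1, the type with the most Ctgf, made up 52.2% ± 3.08 of fibroblasts in the uninjured mice (744 of 1441 cells) and 0 of 1672 in the anti-GFP mice, which allows a share of up to 0.179%. InjuryCryptFB1 went from 0.0882% ± 0.176 to 11.2% ± 5.59 and InjuryCryptFB2 from 2.14% ± 2.0 to 25.9% ± 3.41. Because types were named from the same cells, a missing type and a type whose genes changed cannot be told apart here. Without BaseCryptFB1 in any mouse, the log2 change of Ctgf was -1.10 (limma adjusted p = 0.00395). With equal weight for the 3 types present in every mouse compared (BaseCryptFB2, CryptFB1 and MyoFB), Ctgf changed by -0.77 (limma adjusted p = 0.299) and Cyr61 by -0.37 (limma adjusted p = 0.153).

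Within CryptFB1 cells, 3 members were called with DSS, against 15% of the genes tested in that type. CryptFB1 cells held 0.982, 2.28, 1.65 and 1.56 of Ctgf in the uninjured mice and 0.363, 0.237, 0.0139, 0.229, 0.135 and 0.313 with anti-GFP, with no overlap (log2 change -3.19 ± 0.90, limma adjusted p = 0.0376). Their Cyr61 was 2.97, 2.24, 3.54 and 4.37 against 0.662, 0.84, 0.603, 1.7, 2.21 and 1.02, also without overlap (log2 change -1.60 ± 0.21, limma adjusted p = 7.47e-06). Axl went the other way in these cells, from 1.16, 1.23, 1.52 and 1.37 to 1.78, 2.11, 1.99, 1.55, 1.94 and 1.88 (log2 change 0.50 ± 0.16, limma adjusted p = 0.0351).

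Axl thus differed in opposite directions under the labels CryptFB1 and BaseCryptFB2, both found with and without DSS. Because types were named from the same cells, a change within any of these types cannot be told apart from cells named otherwise. BaseCryptFB2 cells held 2.8, 5.34, 5.16 and 5.09 of Axl in the uninjured mice and 1.69, 1.76, 2.25, 1.92, 2.3 and 1.87 with anti-GFP, without overlap (log2 change -1.18 ± 0.22, limma adjusted p = 0.000313, against 7.56% of genes called). The difference between the types was not tested. In BaseCryptFB2 the change of Ctgf was -0.34 (limma adjusted p = 0.769) and that of Cyr61 0.30 (limma adjusted p = 0.534). MyoFB cells, the contractile type, had less Amotl2, 0.159, 0.333, 0.365 and 0.267 against 0.164, 0.102, 0.0635, 0.106, 0.0218 and 0.0282 (log2 change -1.86 ± 0.54, limma adjusted p = 0.0297, against 8.46% of genes called), with 1 anti-GFP mouse inside the uninjured range.

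**Figure D3:**
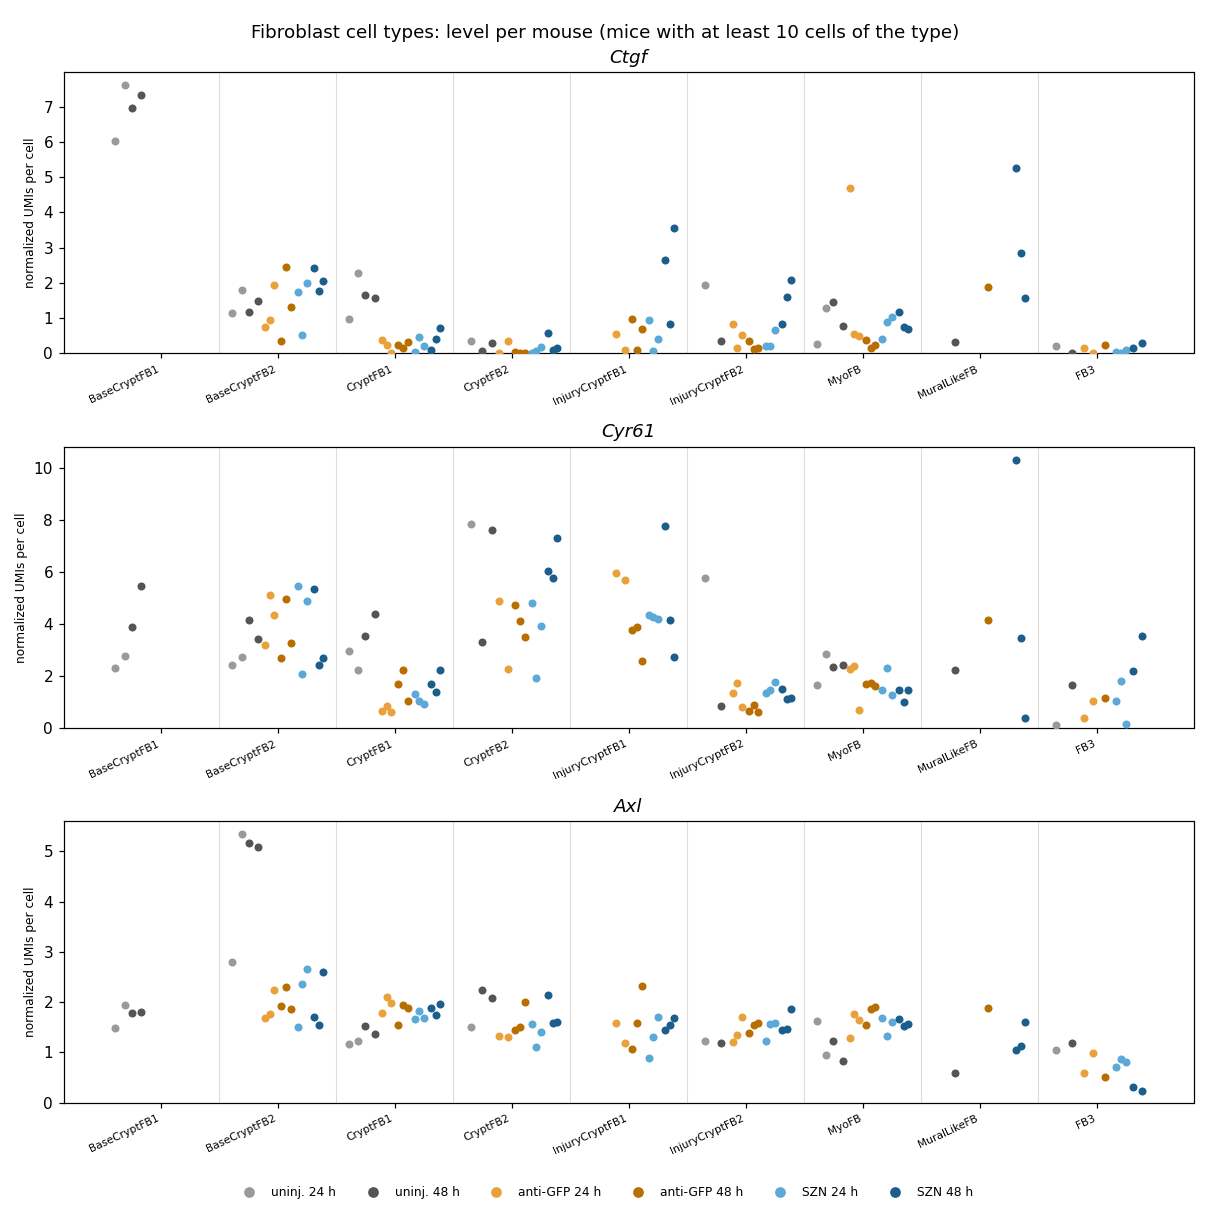
Normalized UMIs per cell of Ctgf, Cyr61 and Axl are plotted for each mouse with at least 10 cells (points) in 9 fibroblast types, coloured by the 6 groups. BaseCryptFB1 points come from uninjured mice with Ctgf of 6.03 to 7.61, and Axl in BaseCryptFB2 separates uninjured from DSS mice.

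Other measures moved with the same groups in fibroblasts. The summed epithelial markers (6 genes) were 3.5 to 7.82 normalized UMIs in fibroblasts of the uninjured mice and 0.632 to 2.43 with anti-GFP, and the summed B and plasma cell markers (4 genes, with Ms4a1 at 0 in the uninjured mice) 0.411 to 9.42 and 0.0812 to 0.216. The summed myeloid markers (6 genes, with S100a9 at 0 in the uninjured mice) were 0.049 to 0.159 in the uninjured mice and 0.183 to 0.441 with anti-GFP. Their part in the Ctgf and Cyr61 results was not tested. Epithelial cells themselves held 0.0112 of Ctgf on average. Muscle and mural markers (6 genes) overlapped, at 14.8 to 28.3 and 16.1 to 28.8, and without MyoFB and MuralLikeFB the Ctgf change was -3.40 (limma adjusted p = 1.48e-08).

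SZN-1326-p after DSS was next compared with anti-GFP at the same time, so the anti-GFP mice are shared with the DSS comparison. In fibroblasts at 24 h, Ctgf was 0.409, 0.399 and 0.725 with SZN-1326-p against 1.31, 0.409 and 0.644 with anti-GFP, and the groups overlapped (log2 change -0.51 ± 0.31, limma adjusted p = 0.686). None of the 6 members was called by limma or by voom on UMI sums, none had an unadjusted p under 0.05, and 0.009% of all genes were called.

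At 48 h the fibroblast Ctgf values did not overlap. Ctgf was 1.3, 1.12 and 1.71 with SZN-1326-p and 0.415, 0.402 and 0.509 with anti-GFP, a log2 difference of 1.60 ± 0.31, which did not pass the test (limma adjusted p = 0.0588). All SZN-1326-p values lay below the uninjured minimum of 3.76. In this comparison 0 of 6 members were called by limma (1 at an unadjusted p under 0.05) and 0 by voom, against 0.09% of all genes. The limma adjusted p of Ctgf moved across the threshold in other settings, for a reason that was not tested. It was 0.000701 when only the compared groups entered the fit, 0.00665 with equal weight per cell type and 0.0343 without MyoFB and MuralLikeFB. It was 0.00367, 0.00904 and 0.0356 without anti-GFP 24 h mouse 1, anti-GFP 24 h mouse 2 or SZN-1326-p 24 h mouse 3. It was 0.538 without the 2 SZN-1326-p mice with many mitochondrial UMIs (24 h mouse 2 and 48 h mouse 3), and the part of the mitochondrial share in this difference was not tested otherwise.

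The other fibroblast members did not pass the test at 48 h. Cyr61 was 3.6, 1.93 and 2.31 with SZN-1326-p against 2.04, 2.58 and 1.77 (log2 difference 0.26, limma adjusted p = 0.82). Amotl2 differed by 0.36 (limma adjusted p = 0.673), Ajuba by 0.47 (limma adjusted p = 0.861), Lats2 by 0.01 (limma adjusted p = 0.998) and Axl by -0.02 (limma adjusted p = 0.991). The change of the SZN-1326-p difference from 24 h to 48 h was 2.11 ± 0.44 for Ctgf (limma adjusted p = 0.302), and 0 of 6 members and 0% of genes were called by limma (2 members at an unadjusted p under 0.05, 0 members by voom); without anti-GFP 24 h mouse 2 it was 2.49 (limma adjusted p = 0.0297).

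By type, Ctgf at 48 h was called in none of the 6 fibroblast types tested, and BaseCryptFB1 made up 8 of 1528 fibroblasts with SZN-1326-p. InjuryCryptFB2 cells held 0.82, 1.59 and 2.09 of Ctgf with SZN-1326-p and 0.345, 0.111 and 0.143 with anti-GFP, without overlap (log2 difference 2.91 ± 0.72, limma adjusted p = 0.277, against 0.0858% of genes called). CryptFB2 cells held 0.566, 0.086 and 0.15 of Ctgf (58, 5 and 4 UMIs) against 0.0358, 0 and 0 (2, 0 and 0 UMIs), also without overlap (limma adjusted p = 0.828). InjuryCryptFB1 cells held 2.65, 0.819 and 3.55 against 0.98, 0.0915 and 0.681, which overlap (limma adjusted p = 0.941). In CryptFB1 the log2 difference was 0.43 (limma adjusted p = 0.999), in BaseCryptFB2 0.98 (limma adjusted p = 0.994) and in MyoFB 1.77 (limma adjusted p = 1.0). Summed muscle and mural markers in fibroblasts were 28.5 to 33.6 with SZN-1326-p and 18.6 to 28.8 with anti-GFP at 48 h, and their part in the Ctgf difference was not tested.

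**Figure D4:**
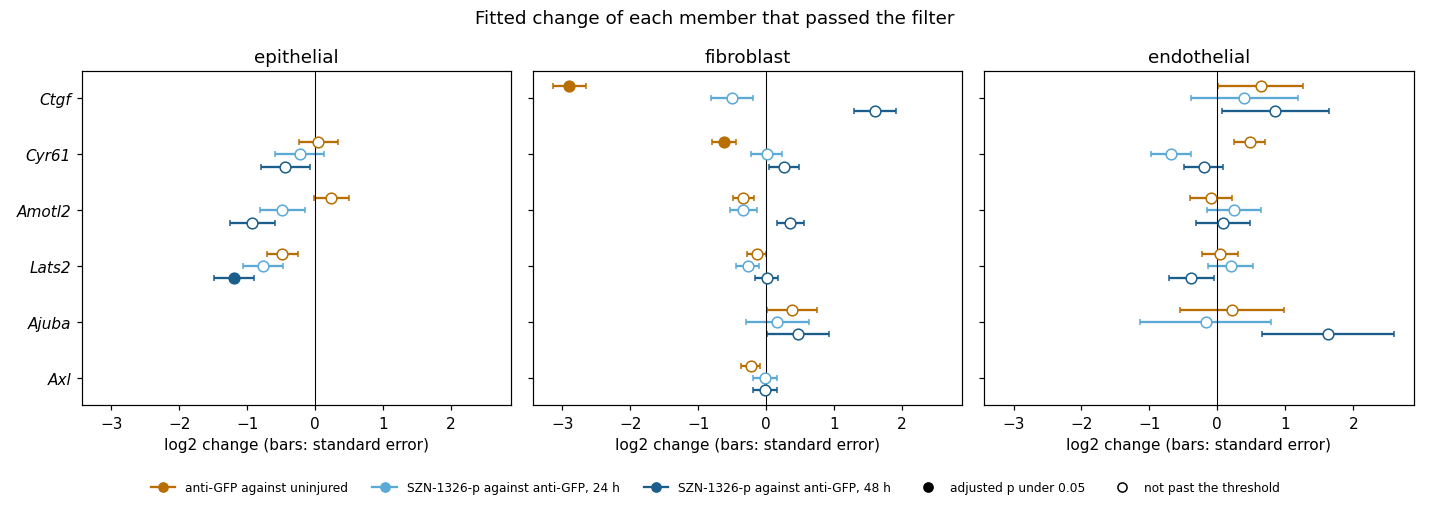
Log2 changes with SE bars are plotted for each gene that passed the level filter, for anti-GFP against uninjured and for both times of SZN-1326-p against anti-GFP (24 h and 48 h) in the 3 classes; filled points have an adjusted p under 0.05. The filled points are Ctgf at -2.90 and Cyr61 at -0.62 in fibroblasts with DSS and Lats2 at -1.19 in epithelial cells with SZN-1326-p at 48 h.

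In epithelial cells, Cyr61, Amotl2 and Lats2 passed the level filter (a mean of at least 0.05 in at least 2 mice), and Ctgf, Ajuba and Axl did not. With DSS and anti-GFP, 0 of these 3 were called by limma (0 at an unadjusted p under 0.05) and 1 by voom (Amotl2, 0.80, voom adjusted p = 0.018), against 23.3% of the 10795 genes tested. Cyr61 was 0.885, 1.23, 1.51 and 1.56 in the uninjured mice and 1.36, 0.62, 2.43, 1.95, 1.2 and 1.05 with anti-GFP, fully overlapping (log2 change 0.05 ± 0.28, limma adjusted p = 0.914). Amotl2 changed by 0.24 ± 0.26 (limma adjusted p = 0.532) and Lats2 by -0.48 ± 0.23 (limma adjusted p = 0.142).

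The 3 epithelial members below the filter were read from a fit without it. Epithelial Ctgf was 0.00486, 0.00893, 0.0297 and 0.0415 in the uninjured mice and 0.000812 to 0.00759 with anti-GFP (log2 change -0.99 ± 0.23 on the scale with 0.01 added, limma adjusted p = 0.0101), at shares of cells that did not exceed background. Ajuba changed by 0.51 (limma adjusted p = 0.172) and Axl by -0.24 (limma adjusted p = 0.615). Within AltEnteroPC cells, an injury-associated progenitor type by its label, Ajuba had 0, 1, 0 and 0 UMIs in the uninjured mice (108 cells) and 6, 2, 5, 3, 5 and 1 UMIs with anti-GFP (375 cells). It passed the level filter there through DSS mice alone, so no test of that difference is given.

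Lats2 was the epithelial member called by limma with SZN-1326-p, at 48 h. At 48 h Lats2 was 0.0131, 0.0141 and 0.022 with SZN-1326-p and 0.0815, 0.0415 and 0.0351 with anti-GFP, and the groups did not overlap. These values rest on 11, 11 and 30 UMIs and on 23, 31 and 12 UMIs. Lats2 changed by -1.19 ± 0.29 on the log2 scale (limma adjusted p = 0.013), and it was the member called among 3 tested, against 12.5% of all genes called and 10.1% called lower. No fold is given, because the SZN-1326-p levels lie near the added 0.01, so that the constant weighs on the size of the change. The calls in that comparison were 260 higher and 1085 lower, or 400 and 834 after scaling mice by the median of ratios and 764 and 1792 with a library term, and the median of all genes was -0.11 (-0.01 after that scaling); Lats2 was then at -1.12 (limma adjusted p = 0.0188). The call was lost without anti-GFP 48 h mouse 1 (-0.88, limma adjusted p = 0.0782) or SZN-1326-p 48 h mouse 2 (-1.13, limma adjusted p = 0.0575), and with equal weight per cell type Lats2 did not pass the level filter and was not tested.

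At 24 h epithelial Lats2 was 0.04, 0.0637 and 0.0413 with SZN-1326-p against 0.0854, 0.0978 and 0.0806, again without overlap, with a log2 difference of -0.77 ± 0.29 that did not pass the test (limma adjusted p = 0.103). In that comparison 0 of 3 members were called by limma (1 at an unadjusted p under 0.05) and 1 by voom, which was Lats2 (voom adjusted p = 0.0228), against 10.1% of genes. The difference between the SZN-1326-p effects at 48 h and 24 h was -0.43 for Lats2 (limma adjusted p = 0.837), with 0 of 3 members called by limma (0 at an unadjusted p under 0.05, 0 by voom) against 0.139% of genes. Amotl2, the other restraint on YAP, was 0.0283, 0.0206 and 0.0359 at 48 h against 0.0721, 0.0659 and 0.0488, without overlap but short of the threshold (log2 difference -0.92 ± 0.33, limma adjusted p = 0.0796). Cyr61 was 1.08, 0.827 and 1.1 against 1.95, 1.2 and 1.05 (log2 difference -0.44, limma adjusted p = 0.455).

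The shares of epithelial types also differed between these groups. Because types were named from the same cells, a shift of types and a change within types cannot be told apart here. EnteroPrecur cells were 5.69% ± 3.65 of the epithelium at 48 h with anti-GFP and 37.7% ± 4.16 with SZN-1326-p. AltEnterocyte made up 14.4% ± 6.69 with anti-GFP and 2.16% ± 0.259 with SZN-1326-p, and AltEnterocyte2 4.35% ± 2.02 and 0.205% ± 0.197. Within single types the Lats2 difference was -1.0 in AltEnteroPC (limma adjusted p = 0.991), -2.28 in AltEnterocyte (limma adjusted p = 0.374), -1.64 in TA2 (limma adjusted p = 0.474) and 0 in EnteroEnd1. AltEnteroPC cells held 0.0232, 0.0389 and 0.0487 of Lats2 with SZN-1326-p and 0.0834, 0.0997 and 0.0649 with anti-GFP, without overlap.

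Myeloid markers and RNA quality were read in the same samples. The 6 myeloid markers summed to 33.9, 0.844 and 0.361 normalized UMIs in epithelial cells of the anti-GFP 48 h mice and 3.6, 0.239 and 0.149 of the SZN-1326-p 48 h mice, which overlap. The mouse with 33.9, anti-GFP 48 h mouse 1, had the highest Lats2, 0.0815, and the mouse with 3.6 the lowest, 0.0131. Without anti-GFP 48 h mouse 1 the Lats2 call was lost. Myeloid cells held 0.438 ± 0.0893 of Lats2, and the part of myeloid RNA in the Lats2 difference was not tested. Without epithelial cells holding 2 markers of another lineage (6.46% of them) the Lats2 change was -1.19 (limma adjusted p = 0.0114). Without the same 2 SZN-1326-p mice with many mitochondrial UMIs it was -1.34 (limma adjusted p = 0.0222). Lats2 has a long transcript (5191 bases, in the upper of 3 equal length classes, which begins at 4312), and the level of long relative to short transcripts in epithelial cells was -0.08, -0.02 and 0.16 on the log2 scale in the anti-GFP 48 h mice and -0.13, -0.33 and -0.08 in the SZN-1326-p 48 h mice, whose part in the Lats2 result was not tested.

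**Figure D5:**
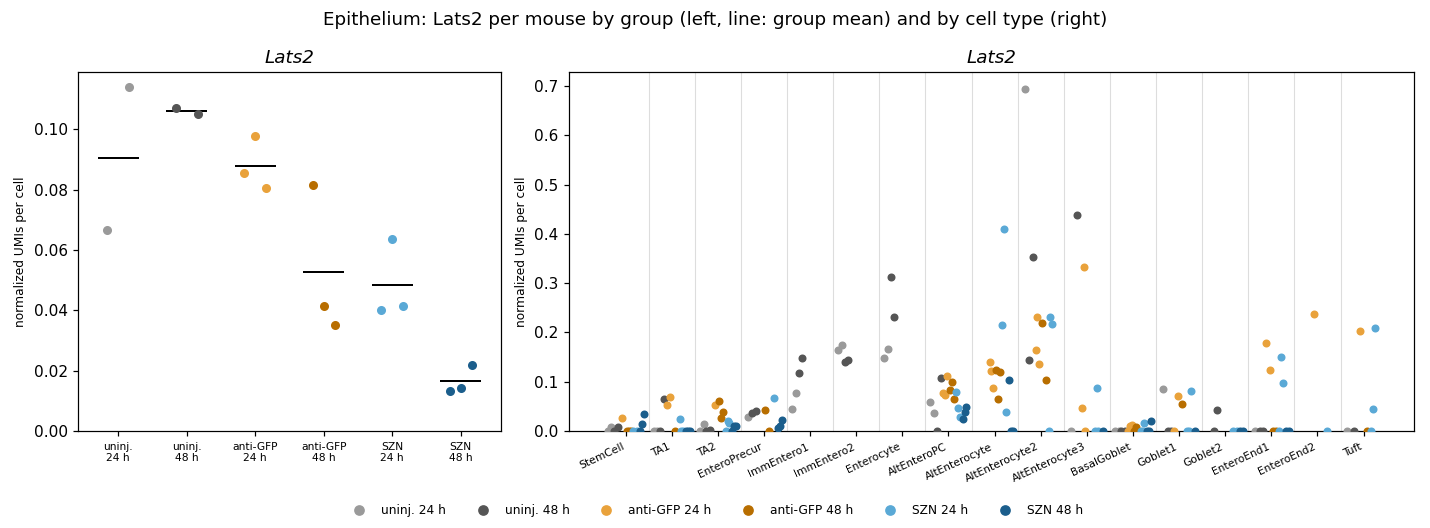
Lats2 in epithelial cells, in normalized UMIs per cell, is plotted for each mouse (points) by group on the left and by epithelial type on the right. SZN-1326-p 48 h mice lay between 0.0131 and 0.022, below the anti-GFP 48 h mice at 0.0351 to 0.0815, and StemCell and BasalGoblet lay near 0.

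Endothelial cells, with as few as 26 cells in a mouse, gave no call for a member. With DSS, 0 of 5 members tested were called by limma (1 at an unadjusted p under 0.05, 0 by voom), against 3.26% of the 11572 genes. Endothelial Cyr61 was 1.57, 1.17, 2.79 and 1.51 in the uninjured mice and 2.49, 1.92, 3.58, 2.03, 2.83 and 1.58 with anti-GFP, overlapping (log2 change 0.47 ± 0.23, limma adjusted p = 0.278). Endothelial Ctgf was 0.082, 0.281, 0.101 and 0 against 0.332, 0.139, 0.0623, 0.107, 0.0629 and 0.0635 (log2 change 0.64 ± 0.62, limma adjusted p = 0.643). Lats2 changed by 0.03 (limma adjusted p = 0.971) and Amotl2 by -0.10 (limma adjusted p = 0.914). With SZN-1326-p, 0 of 5 members and 0% of genes were called by limma at 24 h, at 48 h or between the times (1, 0 and 0 members at an unadjusted p under 0.05, 0 by voom).

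The effect of DSS was then compared between classes by testing the difference itself. The endothelial change minus the fibroblast change was 3.54 ± 0.67 for Ctgf (limma adjusted p = 0.0205), the 1 of 6 members called, against 1.68% of genes; it lost its call without uninjured 24 h mouse 1, uninjured 48 h mouse 2 or anti-GFP 48 h mouse 2 (limma adjusted p = 0.0622, 0.054 and 0.0502). For Cyr61 that difference was 1.09 (limma adjusted p = 0.135). Between endothelial and epithelial cells the difference was 1.63 for Ctgf (limma adjusted p = 0.264), with 0 of 5 members called by limma (1 at an unadjusted p under 0.05; voom was not run on differences between classes) against 1.84% of genes. The fibroblast change minus the epithelial change was -1.90 ± 0.38 for Ctgf (limma adjusted p = 0.00426), 1 of 6 members called against 16.1% of genes. Ctgf entered that comparison through its fibroblast level alone, and its epithelial values did not exceed background, so nothing is read from this call.

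Around the members, genes of the pathway itself are given from fixed lists. With DSS in fibroblasts 12.4% of all genes rose and 9.79% fell, and the median change was 0.02. Of 8 YAP and TEAD genes, 4 rose and 1 fell, with a median of 0.38: the co-activator gene Yap1 by 0.61 ± 0.14 (limma adjusted p = 0.00313, from 0.432 ± 0.0359 to 0.667 ± 0.0886 normalized UMIs), Tead1 by 0.76, Tead3 by 0.89 and Tead4 by 1.41 on the log2 scale. The cofactor Vgll3 changed by -0.56 (limma adjusted p = 0.024), and Wwtr1, which encodes TAZ, by 0.16 (limma adjusted p = 0.396), Tead2 by -0.18 and Vgll4 by -0.02. Of 17 Hippo core genes tested, Limd1 (0.54) and Sav1 (0.37) rose and none fell, with a median of 0.25, a share near that of all genes.

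Other known YAP targets changed in both directions. Of 17 wider targets tested, 2 rose and 6 fell, with a median of -0.37. The 3 largest falls were Igfbp3, an IGF-binding protein (-2.35 ± 0.26, from 4.94 ± 0.679 to 1.03 ± 0.433 normalized UMIs), Ddah1 (-1.71) and the EGF receptor ligand Areg (-0.91), and Gadd45a (0.89) and Rbms3 (0.44) rose. In the CCN family, with 5 of 6 genes tested, Nov (CCN3) fell with Ctgf and Cyr61, by 1.92 ± 0.22 on the log2 scale, and Wisp1 (CCN4) rose by 1.21 ± 0.19. Among the 5 genes of the Axl group, the ligand Gas6 changed by -0.86 ± 0.13, from 2.2 ± 0.182 to 1.21 ± 0.186 normalized UMIs. The related ligand Pros1 rose by 0.84 ± 0.12 and the receptor Tyro3 by 0.63 ± 0.22. Of 10 TGF-beta genes 4 fell, led by Tgfb3 (-1.06), Tgfbi (-0.78) and Smad7 (-0.65). Of 12 SRF and MRTF targets, Fhl1 fell (-0.94) and Srf rose (0.50).

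Genes known to respond to tissue dissociation were counted in the same way. Of 17 immediate early genes in fibroblasts, 2 rose and 3 fell, where 22.2% of all genes were called, with Atf3 at -1.65 ± 0.25, Btg2 at -1.0 and Jund at -0.64, and Ier3 at 0.95 and Hspa1b at 0.85. Ctgf and Cyr61 are themselves fast-responding genes, and the part of dissociation in their changes was not tested. In epithelial cells, where 23.3% of all genes were called, 2 of these 17 rose with DSS, Socs3 (2.26) and Hspa1b (1.45), and 6 fell, led by Atf3 (-1.02), Jund (-0.94) and Jun (-0.91).

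The pathway lists in the other comparisons are read against the shares of all genes given above. In epithelial cells with DSS (median of all genes 0.01), the Hippo genes Amot (0.79), Wwc1 (0.65) and Limd1 (0.60) rose among 17, no YAP or TEAD gene of 4 was called (Yap1 0.46, limma adjusted p = 0.0921), and of 14 wider targets 2 rose and 4 fell, led by Ddah1 (0.92) and by Asap1 (-1.69), Areg (-1.46) and Gadd45a (-0.95). With SZN-1326-p at 48 h, Lats2 was the 1 of 17 Hippo core genes called, and of 14 wider targets Nt5e (-1.85), Nuak2 (-1.16) and Asap1 (-0.76) fell while Birc5, a mitotic gene, rose (0.94). No YAP or TEAD gene of 4 was called there (Yap1 -0.09, limma adjusted p = 0.843). In fibroblasts with SZN-1326-p at 48 h none of the 8 YAP and TEAD genes was called (Vgll3 0.84, limma adjusted p = 0.159), and Hspa1b was the 1 gene called in any of the 8 lists (-1.78 ± 0.30, limma adjusted p = 0.0236). In endothelial cells with DSS, Gas6 (-1.10), Tgfb2 (-1.93) and Areg (-2.18) fell and Postn (2.99) and Hspa1b (1.79) rose.

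Across the 28 epithelial, fibroblast and endothelial cell types with at least 50 cells, the members' patterns are described by Pearson's r of log2 levels with no test, since types share mice and libraries. Ctgf, Axl, Amotl2 and Lats2 went together, from 0.7 for Lats2 and Axl to 0.9 for Ctgf and Axl and for Amotl2 and Lats2. Cyr61 had 0.29 with Lats2, the lowest pair, to 0.59 with Ctgf, and Ajuba 0.31 with Lats2 to 0.61 with Ctgf. Among 13131 genes, those most like Ctgf were Sspn (0.938), Samd4 (0.933) and Fxyd1 (0.932), and those most like Axl were Rab7b (0.985), Bnc2 (0.984) and the collagen gene Col1a1 (0.983). Cyr61 was closest to Wtip (0.84), Selenof (0.838) and Tmem109 (0.833), Amotl2 to Slc43a3 (0.916), Map7d1 (0.911) and Qk (0.909), Lats2 to Soga1 (0.919), Xaf1 (0.912) and Map7d1 (0.909), and Ajuba to Mtap (0.862), Ctps (0.846) and Zfp41 (0.815).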

How the data were processed

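Cells of 16 mice were profiled by droplet sequencing, and per the submitters' processing notes Cell Ranger 3.0.2 and the mm10 genome were used. The deposited matrix holds log2 values per gene and cell. Their form, log2(UMIs / size factor + 1), was inferred from the values: 100% of the 60867816 entries above 0 gave whole UMIs (tolerance 1e-06). How size factors and doublets were handled is not given in the sources used here. The deposited annotation gives each cell's mouse, condition, tissue layer and cell type, and these other columns set the classes.

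Normalized UMIs were averaged per mouse and class (at least 20 cells) or type (at least 10 cells), and log2(mean + 0.01) was tested with limma 3.58.1 (trend, robust; R 4.3.3), all 6 groups in 1 fit, for genes at 0.05 or more in at least 2 mice. P-values were adjusted by Benjamini-Hochberg over all genes of a fit, threshold 0.05. Python 3.11.15, numpy 2.4.6 and scipy 1.17.1 did the rest. The tests were checked on simulated data. Total UMIs of 9616512 to 21335421 per mouse set the precision; limits for a count of 0 use 3 counts and cover counting error only.

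The members and gene lists were chosen with earlier results of these data known. Of each list, up to 3 called genes per direction were named by size of change, and the YAP and TEAD list always; likeness used the 3 genes with the highest correlation. Alternatives covered the pseudocount, filter, mice in the fit, replicate block, left-out mice, at least 50 cells, voom, other-lineage cells, cell type weights, a library term for transcript length and scaling. Fits within cell types, fits without certain fibroblast types and a block for class differences were added after seeing the data.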

Additional observations from a re-analysis of the deposited data

Results flagged for a closer look

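Of 28 sets of values tested for a sample far from the others, 3 had one, where chance gives about 1 in 20, and all 3 were from the same mouse, anti-GFP 24 h mouse 1. Its fibroblast Ctgf was 1.31 normalized UMIs per cell against 0.402 to 0.644 in the 5 other anti-GFP mice, a gap of 0.734 of the range where 0.625 is the critical value. Its fibroblast Ajuba was 0.125 against 0.0274 to 0.0393 (gap 0.878), and its endothelial Ctgf was 0.332 against 0.0623 to 0.139 (gap 0.716). Its library also leaned to long transcripts, whose level relative to the other mice exceeded that of short transcripts by 0.51 on the log2 scale in fibroblasts, the highest of 16 mice, and the part of this in the 3 values was not tested. Ctgf, at 2490 bases, is counted among the short transcripts (up to 2617 bases), and Ajuba, at 3397 bases, among neither.

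The change of Ctgf with DSS in endothelial cells minus that in fibroblasts was 3.54 (limma adjusted p = 0.0205). Its change in fibroblasts minus that in epithelial cells was -1.90 (limma adjusted p = 0.00426), but Ctgf entered that comparison through its fibroblast level alone and did not exceed background in epithelial cells, so nothing is read from it.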

How the results depend on the processing

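Of 448 recomputed counts of members called, 419 equalled the reported one. For DSS in epithelial cells the count went from 0 to 1 with no filter and with voom, and for SZN-1326-p at 24 h in epithelial cells to 1 with voom. Equal weight per cell type gave 0 for epithelial SZN-1326-p at 48 h, 0 for fibroblast DSS and 1 for fibroblast SZN-1326-p at 48 h. Fibroblast DSS gave 3 without BaseCryptFB1 and 1 without cells holding 2 markers of another lineage, and fibroblast SZN-1326-p at 48 h gave 1 with only the compared groups and without MyoFB and MuralLikeFB. Leaving out each mouse in turn gave 0 to 1 for epithelial DSS, epithelial and fibroblast SZN-1326-p at 48 h, the fibroblast time difference and the endothelial minus fibroblast DSS effect, 1 to 3 for fibroblast DSS, 5 to 6 for endothelial cells against fibroblasts (5 also with a pseudocount of 0.05) and 1 to 2 for the fibroblast minus epithelial DSS effect. Signs turned within single types, none called: Lats2 0.42 with SZN-1326-p at 24 h in AltEnterocyte, Amotl2 3.11 in EnteroEnd1 and 1.32 in StemCell with SZN-1326-p at 48 h, Cyr61 0.30 and Amotl2 0.71 with DSS in BaseCryptFB2 (adjusted p = 0.534 and 0.121 with limma), and Ctgf -0.00799 for the time difference in CryptFB1. The cause was not tested.

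Of 42 pairs of same-numbered mice, 15 had r over 0.1 (range -0.316 to 0.529), all of them in epithelial cells or fibroblasts. Endothelial r ran from -0.037 to 0.0753. At 24 h, the mice numbered 1 deviated together in epithelial cells (0.345, 0.529 and 0.385) and fibroblasts (0.252, 0.421 and 0.312). Pairs of anti-GFP 24 h mouse 2 in these classes were negative (-0.219, -0.305, -0.224 and -0.316). The main fits hold no term for replicate number. With a replicate block, 3 members were called for fibroblast DSS (Axl, at -0.31, joined with limma adjusted p = 0.0356), 1 for epithelial SZN-1326-p at 48 h and 0 for fibroblast SZN-1326-p at 48 h (Ctgf limma adjusted p = 0.119), and 4 of 6 differed between endothelial cells and fibroblasts, Cyr61 and Ajuba no longer passing. Over all genes the block moved the calls for SZN-1326-p at 48 h from 1345 to 2399 in epithelial cells and from 10 to 72 in fibroblasts. Equal weight per type moved them to 118 and 25, the library term to 2556 and 101, and voom to 1162 and 3, while equal weight moved DSS from 2510 to 776 in epithelial cells and from 2462 to 1546 in fibroblasts. At least 50 cells left too few mice for endothelial comparisons. Ajuba in every class, and Axl and Ctgf in epithelial cells and Axl in endothelial cells, rest on few UMIs, so changes in them below the spread between mice were not detectable at this depth.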
